A study of Homo sapiens with 24 samples.

Results

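The 9 Krüppel-like factor genes KLF2, KLF3, KLF4, KLF5, KLF6, KLF9, KLF10, KLF11 and KLF13 were followed in human Huh-7 cells, an established hepatocellular carcinoma line, on Illumina bead arrays. Members were taken by gene symbol from the platform annotation, which named 12 of the 47231 probes for 8 of the 9 genes. KLF10 had 3 probes, KLF3 and KLF4 had 2 each, and the other 5 genes had 1. No probe was named for KLF11 in this annotation, so KLF11 has no value here. All 12 probes lay above the median of their array on at least 2 arrays, and the 8 genes were among 15246 genes tested. The list was drawn up with values of these same arrays in view, so all differences below describe the arrays and none is an independent test of the family.

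All 24 arrays came from Huh-7 cells that stably carried a lentiviral short hairpin RNA (shRNA), so the control line is itself a transduced line. The control hairpin was directed at GFP (shGFP), a gene from outside the human genome, and the others at HIF1A (shHIF-1A) or NDRG3 (shNDRG3). Arrays of shGFP cells cover normoxia and 3 h, 6 h, 12 h and 24 h in 1% oxygen. Those of shHIF-1A cells cover 3 h, 6 h and 12 h in 1% oxygen, and those of shNDRG3 cells 6 h, 12 h and 24 h. Each group holds 2 arrays, except the 3 h groups of shGFP and shHIF-1A with 3 arrays each. The labels name 1 line per target and give no second hairpin, and all arrays of the knockdown lines are labelled as hypoxia, although the series' design text also speaks of knockdown lines in normoxia. No normoxia arrays of the knockdown lines were analysed here. An effect of the knockdown therefore cannot be told apart from an off-target effect of the hairpin or from a difference between the lines that preceded hypoxia. Hours in hypoxia and hours in culture cannot be told apart either. Whether replicate arrays came from separate cultures is not stated. The p-values therefore weigh each difference only against the spread of arrays within groups, and that spread may be technical.

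Krüppel-like factors are transcription factors with zinc fingers at the carboxyl terminus that bind GC-rich and CACCC elements in promoters, and they differ in the partners that their amino-terminal parts recruit. Some are induced within hours by growth factors, stress, TGF-beta, glucocorticoids or blood flow. In liver they are known for roles in injury, fibrosis, metabolism and the restraint of tumour growth. HIF1A encodes the oxygen-regulated subunit of HIF-1, which binds the hypoxia response element with the core ACGTG. NDRG3 protein is degraded in the presence of oxygen, accumulates in prolonged hypoxia with lactate, and is known to promote RAF-ERK signalling. The comparisons ask how gene expression of Huh-7 cells differs with hypoxia and with a hairpin directed at each of these genes. The arrays measure RNA, so the levels of these proteins are not known here.

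Promoter sequence is shown for KLF6, KLF4 and KLF2, because these were the members that were lower in both knockdown lines at most or all times. The windows hold the 250 bases upstream of each RefSeq transcription start in GRCh38.p14, written 5′ to 3′ on the strand of the gene, with ACGTG and its reverse complement CACGT in capitals. The KLF6 window was chr10:3785210-3785459 on the minus strand, the KLF4 window chr9:107489770-107490019 on the minus strand, and the KLF2 window chr19:16324576-16324825 on the plus strand.
KLF6: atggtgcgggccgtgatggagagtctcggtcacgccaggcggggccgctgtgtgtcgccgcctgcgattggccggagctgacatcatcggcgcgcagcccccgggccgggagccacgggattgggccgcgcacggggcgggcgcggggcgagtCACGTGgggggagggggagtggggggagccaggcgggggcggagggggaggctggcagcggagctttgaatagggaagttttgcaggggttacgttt
KLF4: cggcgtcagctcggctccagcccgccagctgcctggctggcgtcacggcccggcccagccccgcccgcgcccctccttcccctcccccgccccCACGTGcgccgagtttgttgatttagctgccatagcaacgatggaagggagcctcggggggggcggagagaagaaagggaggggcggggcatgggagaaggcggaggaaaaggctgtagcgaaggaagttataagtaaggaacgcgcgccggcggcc
KLF2: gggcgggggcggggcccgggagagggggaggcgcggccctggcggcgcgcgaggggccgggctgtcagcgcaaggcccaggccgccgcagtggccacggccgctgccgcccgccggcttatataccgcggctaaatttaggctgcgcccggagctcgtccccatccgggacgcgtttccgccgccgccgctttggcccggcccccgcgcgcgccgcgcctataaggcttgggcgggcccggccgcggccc

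The KLF6 and KLF4 windows each held 1 copy of CACGTG, which reads as ACGTG on both strands and so counted 2 matches. The KLF2 window held 0 matches. Among 35116 RefSeq windows of the same length, 18.5% held ACGTG on either strand. In all, 7 of the 9 listed genes matched a window, with 9 windows between them. The windows of KLF5, KLF9 and KLF13 and the second window of KLF11 held 0 ACGTG matches, and the first window of KLF11 held 2. GGGCGG, the GC box bound by SP1 and many Krüppel-like factors, occurred on either strand 4 times in the KLF4 window, 4 times in the KLF2 window and 2 times in the KLF6 window. It was found in 42.6% of all windows. CACCC, searched on both strands as well, was found in 54.7% of all windows and in none of the 3 windows printed. A match describes these letters and not a site bound by HIF-1 or by any other factor. Other forms of the hypoxia response element were not searched.

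The deposited signals had array medians of 115 to 150 and are read here as log2 levels after quantile normalization, on which every array has a median of 7.03. HIF1A lay between 8.81 and 9.67 in the shHIF-1A arrays and between 10.26 and 11.15 in all others. NDRG3 lay between 8.24 and 8.60 in the shNDRG3 arrays and between 10.34 and 10.85 in all others. The arrays of 2 groups agreed less well than the others. Replicate 2 of shHIF-1A at 3 h correlated at r = 0.9912 and 0.9914 with the other replicates, which correlated with each other at 0.9973, and the pair of shNDRG3 arrays at 24 h correlated at 0.9798. With 2 arrays, that correlation does not say which of the pair departs. Results of these groups are therefore given also with shHIF-1A 3 h replicate 2 left out together with shNDRG3 24 h replicate 1 or replicate 2. For the shHIF-1A line both versions gave the same differences within 0.01, called reduced arrays below, and for the shNDRG3 line each version is given. Of 13 hepatocyte markers with a probe, 4 were above 2 times the array median in shGFP normoxia (FOXA1, CEBPA, KRT8 and KRT18). Of the secreted liver proteins ALB was 0.92 above the array median on the log2 scale and SERPINA1 0.09, while AFP, APOA1, APOB, TTR, TF and FGB were between 0.02 and 0.42 below it. The liver factor FOXA2 lay at -0.52 relative to that median. The name Huh-7 is taken from the sample titles, and the identity of the cells was not tested. Of the blood markers with a probe, CD68 was bright and PTPRC was below the median.

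KLF6 (chr10:3775996-3785209, GRCh38.p14) had the widest range of the 8 genes, with group means that spanned 4.08 on the log2 scale. KLF6 is a broadly expressed factor known as a tumour suppressor in liver and as an early gene of liver injury. In the shGFP line its levels were 12.73 and 12.41 in normoxia, 12.66, 12.82 and 12.63 at 3 h, 12.73 and 12.80 at 6 h, 12.91 and 13.11 after 12 h, with 13.43 and 13.67 by 24 h. The 12 h and the 24 h arrays lay above both normoxia arrays without overlap. With 2 or 3 arrays per group, a lack of overlap only describes these arrays, here and below. Its share over all genes was not counted. KLF6 rose by 0.44 ± 0.13 (SE) at 12 h (adjusted p = 0.0116, limma) and by 0.98 ± 0.13 at 24 h, a 1.98-fold difference (adjusted p = 6.19e-07). The 12 h call was lost without shGFP normoxia replicate 2 (0.28, adjusted p = 0.194) or without shGFP 12 h replicate 2 (0.34, adjusted p = 0.158), and with median-centred arrays (0.36) or the signals as deposited (0.11).

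In the shHIF-1A line KLF6 levels were 11.45, 11.38 and 11.57 at 3 h, 11.69 and 11.67 at 6 h, then 12.45 and 12.34 at 12 h. Every one of these arrays lay below the lowest shGFP array of the same time. KLF6 was lower than in shGFP by 1.24 ± 0.10 at 3 h, 1.08 ± 0.13 at 6 h and 0.61 ± 0.13 at 12 h on the log2 scale, or 2.36-fold, 2.12-fold and 1.53-fold. The average over these times fell by 0.98 ± 0.069 (adjusted p = 4.25e-11), and by 0.96 with the reduced arrays. The change of the difference from 3 h to 12 h was 0.62 ± 0.16, which did not pass (adjusted p = 0.0608), and with the reduced arrays it was 0.58 and passed (adjusted p = 0.0272 and 0.0271). Without shHIF-1A 3 h replicate 2 alone it was 0.58 and did not pass.

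In the shNDRG3 line KLF6 levels were 9.50 and 9.45 at 6 h, 10.02 and 10.18 after 12 h, then 12.27 and 12.00 at 24 h. These were the lowest KLF6 levels of the series at 6 h and 12 h, and the 24 h arrays lay below every shGFP array. Relative to shGFP, KLF6 fell by 3.29 ± 0.13 at 6 h, a 9.78-fold difference (adjusted p = 1.40e-15), by 2.91 ± 0.13 or 7.52-fold at 12 h, and by 1.41 ± 0.13 or 2.67-fold at 24 h. Counted from the most negative difference among the 15246 genes, KLF6 ranked 36th at 6 h, 54th at 12 h and 285th at 24 h. Within the shNDRG3 line KLF6 was 2.66 higher (6.33-fold) at 24 h than at 6 h, while in the shGFP line the same step was 0.79 (1.73-fold). The difference between these steps was 1.87 ± 0.18 (adjusted p = 2.06e-07), with 1.74 when replicate 1 of shNDRG3 at 24 h was left out and 2.01 when replicate 2 was. All 11 group means could be ordered. The highest were shGFP at 24 h (13.55) and 12 h (13.01), then shGFP at 6 h, 3 h and in normoxia (12.77, 12.70 and 12.57), whose arrays overlapped between neighbours. Below them followed shHIF-1A at 12 h (12.40), which overlapped with normoxia, and then shNDRG3 at 24 h (12.14), shHIF-1A at 6 h and 3 h (11.68 and 11.47) and shNDRG3 at 12 h and 6 h (10.10 and 9.48), each below the group before it without overlap.

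**Figure D1:**
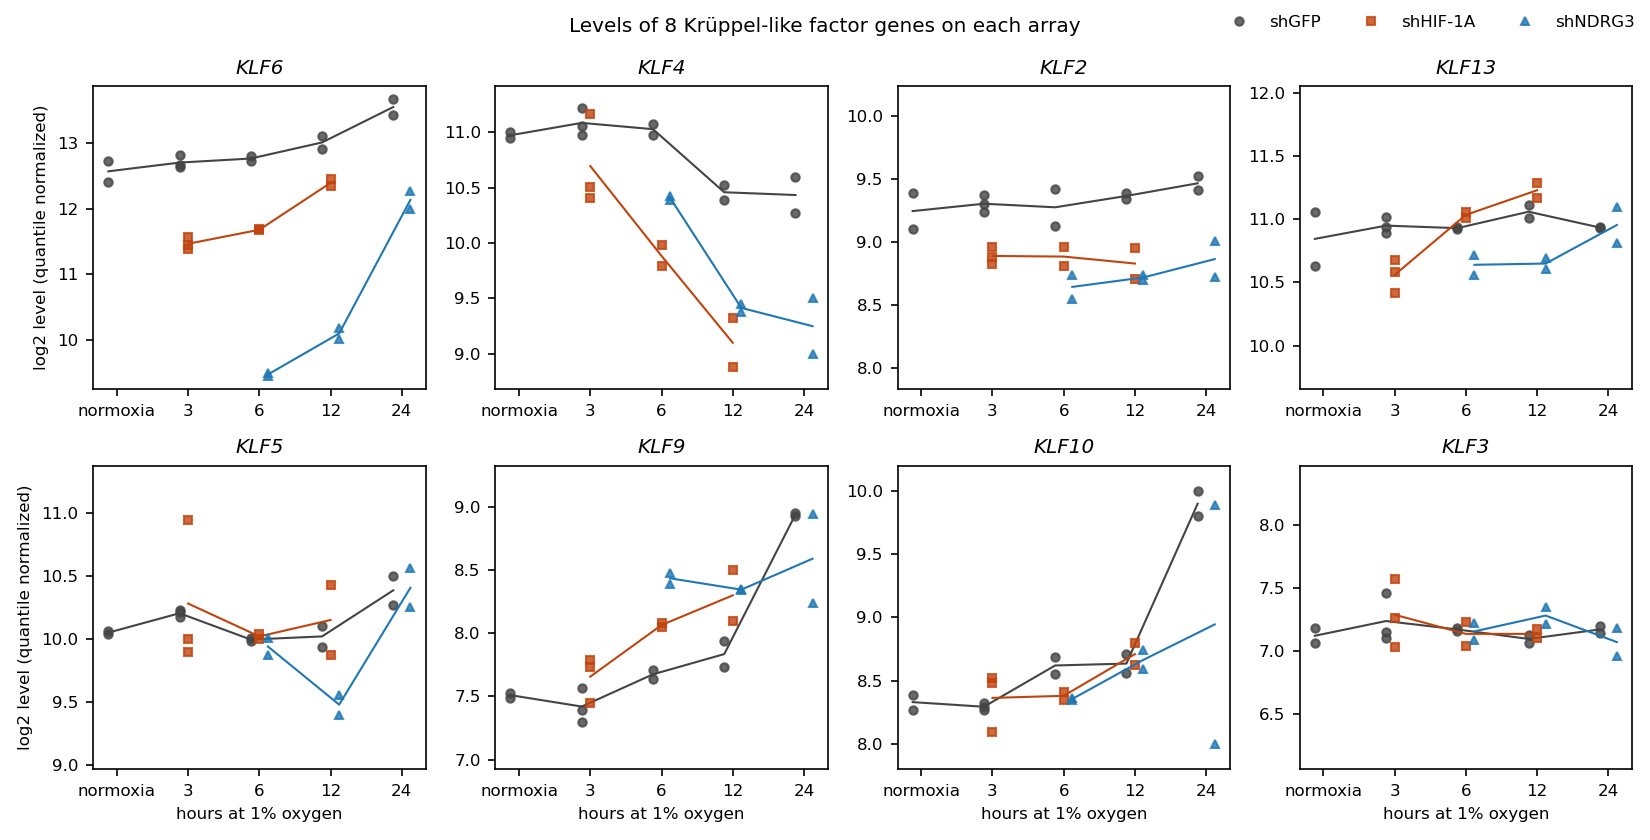
Log2 levels after quantile normalization (y axis, one panel per gene, brightest probe, each panel with its own range of at least 2 log2 units) against normoxia and hours at 1% oxygen (x axis, categories), for shGFP (circles), shHIF-1A (squares) and shNDRG3 (triangles). Each point is an array and lines join group means. KLF6 ran from 9.48 (shNDRG3, 6 h) to 13.55 (shGFP, 24 h) as group means, whereas KLF3 group means spanned 0.22.

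KLF4 (chr9:107484852-107489769) is known as a reprogramming factor that restrains proliferation in epithelia. Its brightest probe read 10.95 and 11 in shGFP normoxia, 10.98, 11.06 and 11.22 at 3 h, 10.98 and 11.08 at 6 h, 10.39 and 10.53 after 12 h, then 10.60 and 10.27 at 24 h. The 12 h and 24 h arrays all lay below the normoxia arrays. KLF4 fell by 0.54 ± 0.19 at 24 h, or 1.45-fold (adjusted p = 0.0259), and its 12 h difference of -0.51 ± 0.19 did not pass (adjusted p = 0.0532). The 24 h call was lost without either normoxia array (-0.56, adjusted p = 0.0731, and -0.51, adjusted p = 0.103) and without shGFP 24 h replicate 2 (-0.37, adjusted p = 0.241). The dimmer KLF4 probe had a 24 h difference of -0.18 ± 0.13 that did not pass (adjusted p = 0.347 over the 31100 probes kept).

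In the shHIF-1A line the brightest KLF4 probe read 10.51, 11.17 and 10.41 at 3 h, 9.79 and 9.98 at 6 h, then 8.88 and 9.32 at 12 h. The 3 h arrays overlapped with shGFP through replicate 2, the array that correlated less with its group, and the later arrays did not overlap. The difference was -0.39 ± 0.16 at 3 h, not passing (adjusted p = 0.0738), and it was -0.63 and passed with the reduced arrays (adjusted p = 0.000107 and 1e-04). KLF4 fell by 1.14 ± 0.19 (2.21-fold) at 6 h and by 1.36 ± 0.19 (2.56-fold) at 12 h, with an average of -0.96 ± 0.10 (adjusted p = 7.59e-08). In the shNDRG3 line it read 10.43 and 10.39 at 6 h, 9.45 and 9.38 after 12 h, then 9.0 and 9.50 at 24 h, with no overlap with shGFP at any of these times. KLF4 fell there by 0.62 ± 0.19 (1.53-fold) at 6 h, 1.04 ± 0.19 (2.06-fold) at 12 h and 1.19 ± 0.19 (2.28-fold) at 24 h, and by 0.95 ± 0.11 on average (adjusted p = 1.56e-07). With the reduced arrays the shHIF-1A average was -1.04, and the shNDRG3 average was -0.86 without replicate 1 at 24 h and -1.03 without replicate 2. The 6 h call in shNDRG3 was lost when any of its 4 arrays was left out: -0.67 (adjusted p = 0.0619) and -0.57 (0.121) without shGFP replicate 1 or 2, and -0.64 (0.0775) and -0.60 (0.098) without shNDRG3 replicate 1 or 2. It was lost also with median-centred arrays (-0.65, 0.0885) and with the signals as deposited (-0.60, 0.108).

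The dimmer KLF4 probe fell in both knockdown lines at every time measured. Its differences were -0.43, -0.82 and -1.07 at 3 h, 6 h and 12 h in shHIF-1A and -0.50, -0.71 and -1.14 at 6 h, 12 h and 24 h in shNDRG3. The averages were -0.77 ± 0.072 (adjusted p = 1.01e-08) and -0.78 ± 0.077 (adjusted p = 1.36e-08). The KLF4 probes therefore ran the same way in each knockdown comparison, while the fall in shGFP at 24 h rested on the brightest probe.

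KLF2 (chr19:16324826-16328685), known for its induction by laminar flow in endothelium and for T cell quiescence, showed small differences. In shGFP its levels were 9.10 and 9.39 in normoxia, 9.37, 9.30 and 9.24 at 3 h, 9.13 and 9.42 at 6 h, 9.34 and 9.39 after 12 h, then 9.52 and 9.41 at 24 h. The shGFP times did not pass against normoxia, with a 24 h difference of 0.22 and a 95% interval from -0.04 to 0.49, which was -0.39 and passed with the signals as deposited. In shHIF-1A it read 8.83, 8.88 and 8.96 at 3 h, 8.81 and 8.96 at 6 h, then 8.71 and 8.95 at 12 h. In shNDRG3 it read 8.74 and 8.55 at 6 h, 8.74 and 8.70 after 12 h, then 9.01 and 8.72 at 24 h. Every knockdown array lay below every shGFP array of the series. KLF2 fell by 0.45 ± 0.069 on average in shHIF-1A, or 1.36-fold (adjusted p = 1.28e-05), and by 0.62 ± 0.073 in shNDRG3, or 1.54-fold (adjusted p = 1.63e-07). The single times passed as well, between -0.38 and -0.54 in shHIF-1A and between -0.60 and -0.65 in shNDRG3. At 3 h in shHIF-1A the call was lost with median-centred arrays (-0.33, adjusted p = 0.0838) and with the signals as deposited (-0.31, 0.109), and at 24 h in shNDRG3 with the compared arrays alone (-0.60, 0.0657). At 6 h in shHIF-1A it was lost without shGFP replicate 2 (-0.24, adjusted p = 0.392), shHIF-1A replicate 1 (-0.31, 0.258) or shHIF-1A replicate 2 (-0.46, 0.068), with median-centred arrays (-0.43, 0.0998) and with the signals as deposited (-0.44, 0.0909), and at 12 h without shHIF-1A replicate 1 (-0.43, 0.0661). With the reduced arrays the shHIF-1A average was -0.45 or -0.44, and the shNDRG3 average was -0.67 without replicate 1 at 24 h and -0.58 without replicate 2.

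KLF13 (chr15:31326835-31435665), which activates CCL5 in T cells and recruits the SIN3A corepressor, differed between the knockdown lines. It read 10.58, 10.42 and 10.68 in shHIF-1A at 3 h against 10.94, 11.02 and 10.89 in shGFP, a fall of 0.39 ± 0.10 (adjusted p = 0.00741) that was -0.32 with the reduced arrays. That call was lost with median-centred arrays (-0.25, adjusted p = 0.178) and with the signals as deposited (-0.23, 0.251). At 6 h and 12 h shHIF-1A arrays read 11.06, 11.01, 11.17 and 11.29, slightly above shGFP (10.94, 10.92, 11.01 and 11.11), by differences that did not pass. In shNDRG3 it read 10.72 and 10.56 at 6 h, 10.61 and 10.69 after 12 h, then 11.10 and 10.81 at 24 h. KLF13 fell there by 0.41 ± 0.13 at 12 h (adjusted p = 0.0184) and by 0.23 ± 0.074 on average (adjusted p = 0.0146), and not at 24 h, where the difference was 0.02. The average call in shNDRG3 was lost without shNDRG3 6 h replicate 2 (-0.20, adjusted p = 0.051) or shNDRG3 24 h replicate 2 (-0.18, 0.0502), or with the signals as deposited (-0.23, 0.0593), and it was kept with shHIF-1A 3 h replicate 2 left out together with shNDRG3 24 h replicate 1 (-0.28, 0.00118) or replicate 2 (-0.18, 0.0334). Against normoxia KLF13 in shGFP differed by 0.09 at 24 h without passing, and by -0.57 with the signals as deposited, which passed. That scaling moved the median of all genes by -0.41 at 24 h, so the KLF2 value lay close to that shift and the KLF13 value below it. The 12 h call was lost without shGFP replicate 2 (-0.36, 0.132), shNDRG3 replicate 1 (-0.37, 0.121) or shNDRG3 replicate 2 (-0.45, 0.0513).

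KLF5 (chr13:73054976-73077538), known as a factor of epithelial proliferation, did not pass in any of the 15 contrasts. Its shGFP levels ran from 9.94 to 10.50 and its shNDRG3 levels at 12 h, 9.40 and 9.56, lay below all of them. The 12 h difference in shNDRG3 was -0.54 ± 0.22 (adjusted p = 0.0697). Over 6 h and 12 h KLF5 was 0.38 ± 0.15 higher in shHIF-1A than in shNDRG3 without passing (adjusted p = 0.11, limma). That difference was 0.24 to 0.52 when single arrays were left out, with 0.52 without shHIF-1A 12 h replicate 2. The averages were 0.08 in shHIF-1A (95% interval -0.17 to 0.32) and -0.19 in shNDRG3 (-0.45 to 0.07). In shHIF-1A at 3 h replicate 2 read 10.94 beside 10.00 and 9.90, so this array set the spread of that group. The shNDRG3 average was -0.14 and did not pass when shNDRG3 24 h replicate 1 was left out with it (adjusted p = 0.14), and -0.24 and passed when replicate 2 was (adjusted p = 0.0104).

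KLF9 (chr9:70384604-70414657), a glucocorticoid-induced factor, was the 1 member whose average rose in both knockdown lines. Its probe was dim. In shGFP it read 7.53 and 7.49 in normoxia, 7.57, 7.30 and 7.39 at 3 h, 7.71 and 7.64 at 6 h, 7.73 and 7.94 after 12 h, then 8.93 and 8.95 at 24 h. Both 24 h arrays lay above all other shGFP arrays. KLF9 rose at 24 h by 1.43 ± 0.17, at least 2.69-fold (adjusted p = 1.42e-07). The fold is a lower bound because normoxia lay under 1.5 times the array median (7.62), where background makes up much of the signal. In shHIF-1A KLF9 read 7.45, 7.79 and 7.73 at 3 h, 8.08 and 8.05 at 6 h, then 8.50 and 8.10 at 12 h. In shNDRG3 it read 8.48 and 8.39 at 6 h, 8.35 and 8.34 after 12 h, then 8.94 and 8.24 at 24 h.

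At 6 h and 12 h every knockdown array lay above the shGFP arrays of that time. KLF9 rose by 0.76 ± 0.17 at 6 h (1.70-fold, adjusted p = 0.00113) and 0.51 ± 0.17 at 12 h (1.43-fold, adjusted p = 0.0221) in shNDRG3, and by 0.47 ± 0.17 at 12 h in shHIF-1A (1.38-fold, adjusted p = 0.0431). The shHIF-1A difference of 0.40 ± 0.17 at 6 h did not pass (adjusted p = 0.108, limma). Nor did that of 0.24 ± 0.14 at 3 h (adjusted p = 0.226), where the arrays overlapped with shGFP. The averages rose by 0.37 ± 0.090 in shHIF-1A and 0.31 ± 0.096 in shNDRG3. Each 12 h call was lost when single 12 h arrays were left out. In shHIF-1A these were shGFP replicate 1 (0.36, adjusted p = 0.276), shGFP replicate 2 (0.57, 0.0665) and shHIF-1A replicate 1 (0.27, 0.442). In shNDRG3 these were shGFP replicate 1 (0.41, 0.183), shNDRG3 replicate 1 (0.51, 0.0998) and shNDRG3 replicate 2 (0.52, 0.0854), and median-centred arrays (0.42, 0.0605). At 24 h the shNDRG3 difference was -0.35 ± 0.17, not passing, and 0.00 without shNDRG3 replicate 2. Without shNDRG3 replicate 1 it was -0.70 and passed (adjusted p = 0.000267). From 6 h to 24 h KLF9 changed by 1.26 in shGFP and by 0.15 in shNDRG3. The difference of these steps was -1.11 ± 0.23 (adjusted p = 0.00262), with -1.47 without shNDRG3 24 h replicate 1 and -0.76 without replicate 2.

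KLF10, known as TGF-beta inducible early gene 1, rose in shGFP at 24 h. Its brightest probe read 8.39 and 8.27 in normoxia, 8.32, 8.27 and 8.29 at 3 h, 8.69 and 8.55 at 6 h, 8.71 and 8.56 after 12 h, then 9.80 and 10.00 at 24 h. The 24 h arrays stood apart from all other shGFP arrays. The rise was 1.57 ± 0.31, or 2.97-fold (adjusted p = 0.000159). The other KLF10 probes were lower, at 1.63 and 1.21 times the array median in shGFP at 24 h, and both lay under 1.5 times it in normoxia. Their 24 h differences were 0.55 ± 0.13, which passed (adjusted p = 0.00113 over probes), and 0.15 ± 0.18, which did not (adjusted p = 0.611). In shHIF-1A KLF10 read between 8.09 and 8.80, with an average difference of -0.03 (95% interval -0.37 to 0.32).

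In shNDRG3 KLF10 read 8.36 and 8.35 at 6 h and 8.59 and 8.74 at 12 h. At 24 h replicate 1 read 9.89, within the shGFP pair, and replicate 2 read 8.0, below every other array of the series. The 24 h difference of -0.96 ± 0.31 passed (adjusted p = 0.0178) but lay between arrays that disagreed. It was -1.91 without replicate 1 (adjusted p = 7.07e-11) and -0.01 without replicate 2 (adjusted p = 0.972). Which of these arrays departs was not settled. It was also lost without shGFP 24 h replicate 2 (-0.86, adjusted p = 0.117). The dimmer probes did not pass there, with differences of -0.07 and -0.33. The shNDRG3 average of the brightest probe was -0.40 ± 0.18 and did not pass (adjusted p = 0.0752, limma). That average was -0.71 to -0.08 when single arrays were left out.

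**Figure D2:**
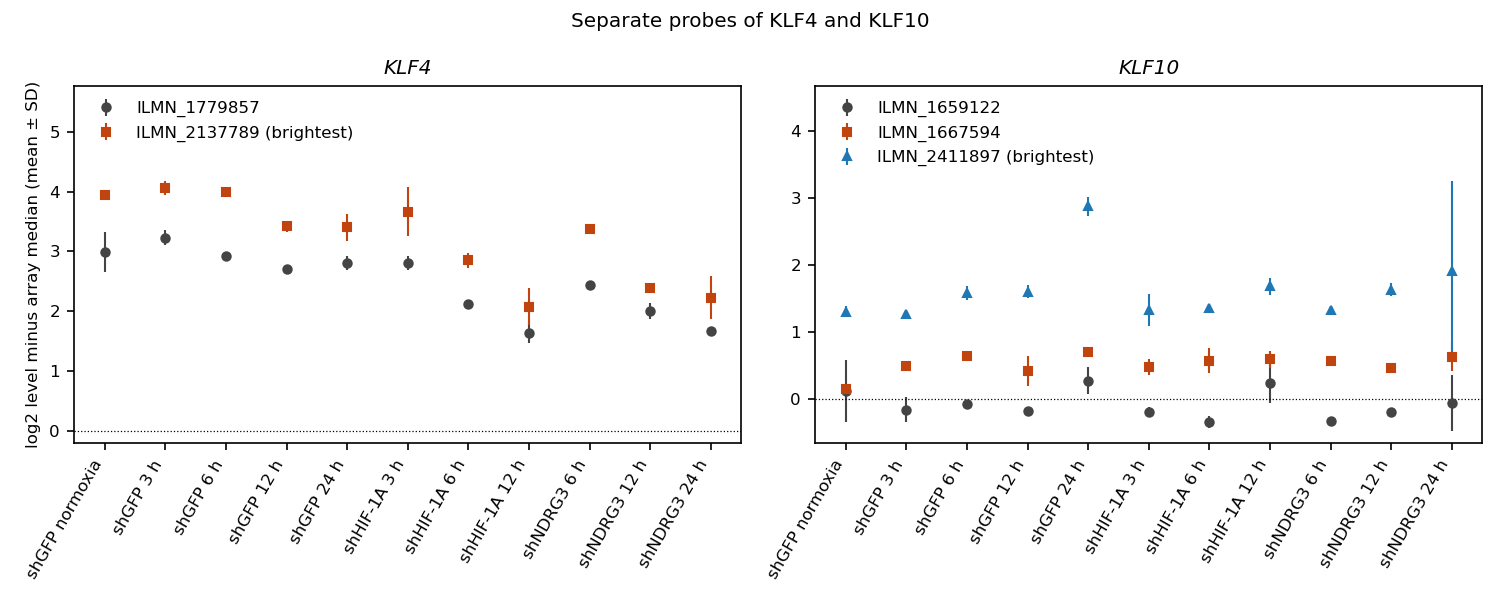
Log2 level minus the array median (y axis, mean ± SD of 2 or 3 arrays) of each KLF4 probe (left) and each KLF10 probe (right) in the 11 groups (x axis). The KLF4 probes fell together in the knockdown lines, the brightest KLF10 probe stood at 2.87 in shGFP at 24 h, and its SD in shNDRG3 at 24 h covers arrays that read 9.89 and 8.0.

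KLF3 (chr4:38664199-38701517), a repressor that recruits CTBP proteins, read close to the array median on both probes in all 11 groups, so that a fold would understate a change. The brighter probe had average differences of 0.02 in both knockdown lines (95% intervals -0.14 to 0.18 and -0.15 to 0.19). The other KLF3 probe fell in shNDRG3 on average by 0.27 ± 0.073 (adjusted p = 0.00557) and at 12 h by 0.45 ± 0.13 (adjusted p = 0.0123), so the KLF3 probes disagreed. All of these levels were under 1.5 times the array median. KLF11, a TGF-beta inducible relative of KLF10, was not measured by a named probe.

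Counts over the 8 genes are given beside the share of all 15246 genes that passed the same threshold, an adjusted p under 0.05, and nothing is read from them because the list was chosen on these values. Against shGFP normoxia, 0 members passed at 3 h, where 1.48% of all genes did, and 0 at 6 h, where 4.87% did. At 12 h 1 member was higher, as were 13% of all genes. At 24 h 4 of 8 passed against 45.4% of all genes, 3 of them higher (21.1% of all genes) and 1 lower (24.2%). In shHIF-1A 3 members were lower at 3 h (13.3% of all genes were lower) and 3 at 6 h (9.75%), and at 12 h 4 passed (23.3%), 3 lower (12.4%) and 1 higher (10.9%). On average over these times 4 of 8 passed against 38% of all genes, 3 lower (18.8%) and 1 higher (19.2%). In shNDRG3 4 passed at 6 h (25.3%), 3 lower (13.2%) and 1 higher (12.1%), and 5 passed at 12 h (27.5%), 4 lower (14%) and 1 higher (13.4%). At 24 h 4 were lower (16.1%), 1 of them KLF10, whose arrays disagreed. On average 5 of 8 passed (43.6%), 4 of the 5 being KLF2, KLF4, KLF6 and KLF13, which were lower (20.9%), and KLF9 was higher (22.7%). Both knockdown lines were compared with the same shGFP arrays at 6 h and 12 h, and all shGFP times with the same normoxia arrays.

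**Figure D3:**
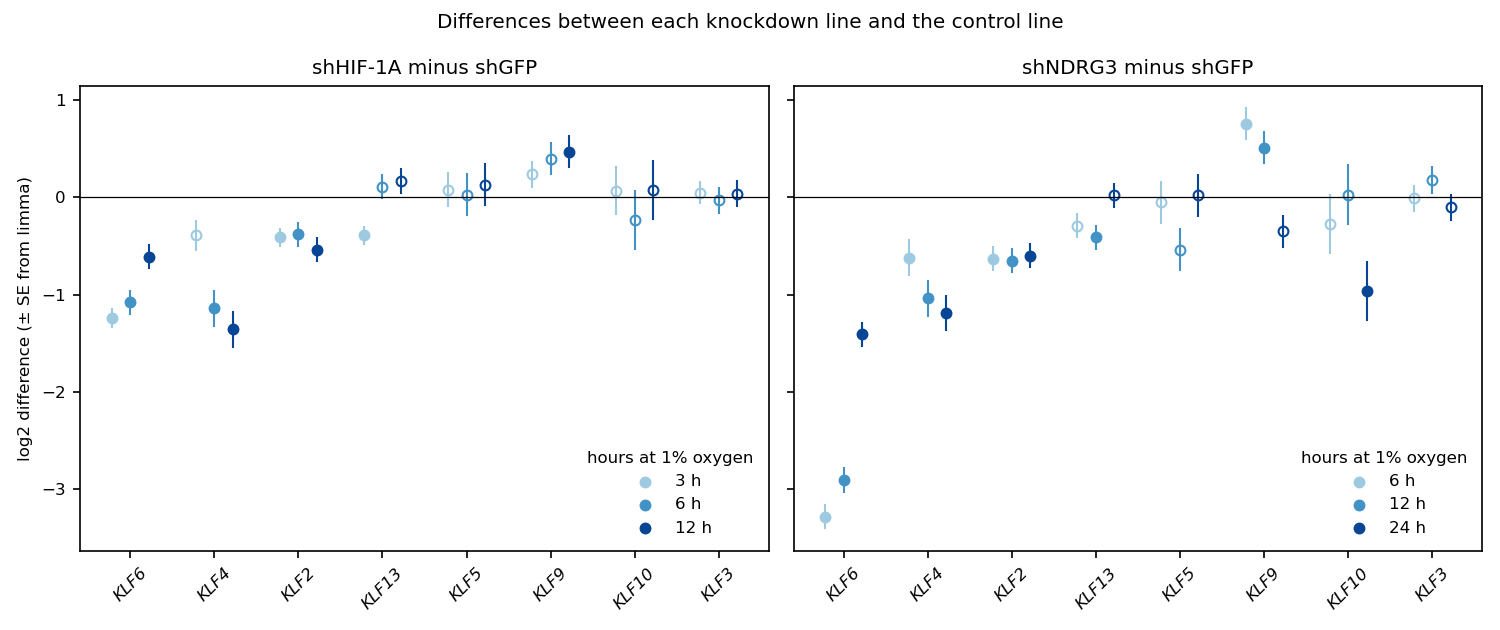
Log2 difference from the shGFP line at the same time (y axis, ± SE from limma) for 8 genes (x axis) in shHIF-1A (left) and shNDRG3 (right). Shades mark the hours, and filled symbols passed an adjusted p under 0.05. KLF6 shows -3.29, -2.91 and -1.41 in shNDRG3 against -1.24, -1.08 and -0.61 in shHIF-1A, at times that match at 6 h and 12 h.

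The knockdown lines were set against each other over 6 h and 12 h, where 3 of 8 members passed and 15.8% of all genes did (8.52% higher in shHIF-1A and 7.25% lower). KLF6 was 2.25 ± 0.089 higher in shHIF-1A than in shNDRG3, a 4.76-fold difference (adjusted p = 9.48e-15) and the 8th highest of 15246. KLF13 was 0.49 ± 0.09 higher (adjusted p = 0.000351). KLF4 was lower in shHIF-1A by 0.42 ± 0.14 (adjusted p = 0.0363), a call that was lost when any 1 of the 8 arrays compared was left out (-0.31 to -0.47) except shHIF-1A 12 h replicate 2 (-0.53). It was lost also with median-centred arrays (-0.34) and the signals as deposited (-0.37). KLF2 did not pass (0.17, adjusted p = 0.227). The change of the shHIF-1A difference from 3 h to 12 h passed for 0 members with limma, against 1.23% of all genes. The values nearest the threshold were those of KLF4 (-0.97, adjusted p = 0.0561) and KLF6. KLF4 passed without shHIF-1A 3 h replicate 1 (-1.06, 0.0465), 3 h replicate 3 (-1.10, 0.031), 12 h replicate 2 (-1.19, 0.0485), and with the reduced arrays (-0.73, 0.0118 and 0.0116), but not without shHIF-1A 3 h replicate 2 alone (-0.73, 0.0881). The change of the shNDRG3 difference from 6 h to 24 h passed for 2 members, KLF6 upward and KLF9 downward, against 10.7% of all genes (6.03% upward and 4.64% downward). KLF10 had -0.69 in that change without passing (adjusted p = 0.38, limma), and -1.64 to 0.25 when single arrays were left out. KLF4 had -0.57 there (adjusted p = 0.214) and passed without shNDRG3 24 h replicate 2 (-0.82, 0.0369), but not without replicate 1 (-0.32, 0.468).

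For the genes whose 11 group means spanned 1 or more, the genes with the most similar group means were sought among 4296 genes of that span. For KLF6 these were TIMP1, an inhibitor of metalloproteinases (Pearson r = 0.991 over 11 group means), CFB, complement factor B (0.979), and FNDC3B (0.975). CFB ranged from 10.41 in shNDRG3 at 6 h to 14.67 in shGFP at 24 h, the same groups that held the lowest and highest KLF6 means. For KLF4 they were EIF5A2, a translation factor (0.968), FHIP2A (0.958) and TNFRSF12A, the receptor of TWEAK (0.947). For KLF9 they were HSF2BP (0.960), RNF5P1 (0.930) and AGPAT5 (0.916), and for KLF10 MPP2 (0.977), CGN (0.972) and PEDS1-UBE2V1 (0.963). The group means share arrays and normalization, and no p-value is given.

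**Figure D4:**
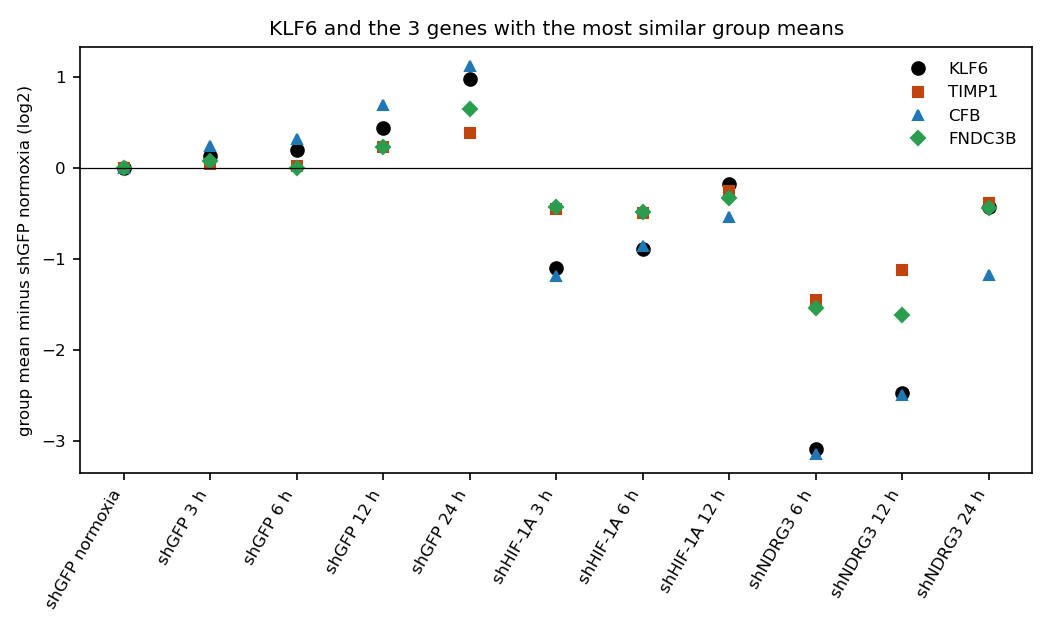
Group mean minus the shGFP normoxia mean (y axis, log2) of KLF6, TIMP1, CFB and FNDC3B in the 11 groups (x axis). All were lowest in shNDRG3 at 6 h or 12 h and highest in shGFP at 24 h.

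Of 18 other KLF and SP genes, 12 were tested. The counts of the lists that follow stand against the shares of all genes that passed, which were 21.1% higher and 24.2% lower in shGFP at 24 h, 19.2% and 18.8% in the shHIF-1A average, 22.7% and 20.9% in the shNDRG3 average, and 8.52% and 7.25% between the lines. In shGFP at 24 h 1 of the 12 rose and 2 fell, with a list median of 0.01 beside 0.00 for all genes. SP1, a ubiquitous activator at GC boxes, rose by 0.40 ± 0.15, and SP2 and SP3 fell by 0.50 ± 0.11 and 0.34 ± 0.12. In shHIF-1A 4 were higher on average and 0 lower, SP1 (0.30), KLF12 (0.28), SP2 (0.19) and SP3 (0.17). In shNDRG3 2 were higher, SP1 (0.26) and SP2 (0.18), and 0 lower. KLF12 was 0.41 higher in shHIF-1A than in shNDRG3, the 1 gene of the list that passed in that comparison. That count was 0 without shNDRG3 6 h replicate 1, shHIF-1A 6 h replicate 1, shNDRG3 12 h replicate 1 or 2, or shHIF-1A 12 h replicate 2.

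Of 16 genes of the TGF-beta pathway and its feedback, 14 were tested. At 24 h in shGFP 5 rose and 5 fell, where 45.4% of all genes passed. SMAD3, a signal transducer, rose by 2.14 ± 0.17 (4.42-fold) and TGFBI, an extracellular matrix target, by 1.19, while the co-receptor TGFBR3 fell by 2.13 ± 0.17 (4.37-fold) and the repressor SKIL by 0.96. In shNDRG3 0 were higher and 8 lower (20.9% of all genes were lower), with a list median of -0.21 beside 0.02 for all genes, among them SMAD6 (-0.97), SMAD3 (-0.95), TGFBR2 (-0.83) and TGFBI (-0.71). In shHIF-1A 0 were higher and 3 lower, namely SMAD6 (-1.15), BAMBI (-0.59) and TGFBR2 (-0.55). Set against each other, 6 were higher in shHIF-1A (8.52% of all genes) and 0 lower, including TGFBI (0.88), SMAD3 (0.82), SMAD4 (0.54) and TGFBR2 (0.43).

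The kinase MAPK7 (ERK5) and the MEF2 factors induce KLF2 and KLF4 in endothelium. Of 8 genes of this pathway 5 were tested, and 3 rose in shGFP at 24 h (21.1% of all genes), MAPK7 (1.54 ± 0.12), MEF2D (1.35) and MAP3K3 (0.70). MAPK7 fell in shHIF-1A by 0.73 ± 0.065 and in shNDRG3 by 0.44 ± 0.069, and MAP2K5, the kinase upstream of it, rose by 0.34 and 0.58. In each line 1 gene of the list was higher and 2 were lower, and the second of these was MEF2D in shHIF-1A (-0.21) and MEF2A in shNDRG3 (-0.22, dim). Between the lines 0 genes of this list were higher in shHIF-1A and 1 was lower, with a list median of -0.21. That call depended on single arrays. Of 8 genes for the glucocorticoid receptor and its responses, all tested, 4 rose (21.1% of all genes) and 2 fell (24.2%) in shGFP at 24 h. ERRFI1 rose by 2.40 ± 0.10, TSC22D3 by 1.16 and DUSP1 by 0.87, and SGK1 fell by 0.79. In shHIF-1A 1 was higher, FKBP5 (0.25), and 2 lower, DUSP1 (-0.91) and ERRFI1 (-0.33). In shNDRG3 3 were higher, TSC22D3 (0.50) among them, and 3 lower, DUSP1 (-1.37), ERRFI1 (-1.24) and SGK1 (-0.23). Between the lines 2 were higher in shHIF-1A, ERRFI1 (1.29) and DUSP1 (0.99), and 1 lower, TSC22D3 (-0.58).

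Of 15 corepressors, coactivators and ubiquitin ligases of the family, all were tested. At 24 h in shGFP 5 rose and 4 fell (45.4% of all genes passed), and 5 in place of 9 passed without shGFP 24 h replicate 1, with HDAC3 at 1.54 ± 0.13, SIN3A at 0.94, the acetyltransferase KAT2B at 0.93 and HDAC1 at -0.75. In shHIF-1A 8 were higher (19.2% of all genes), SIN3A (0.32), HDAC1 (0.28) and HDAC2 (0.22) among them, and 1 lower, KAT2B (-0.41), with a list median of 0.22 beside 0.00 for all genes. In shNDRG3 4 were higher and 0 lower, CTBP2 (0.77 ± 0.11), HDAC1 (0.50), CTBP1 (0.40) and HDAC2 (0.36). FHL3 was 0.39 higher in shHIF-1A than in shNDRG3, the 1 gene of the list that passed there, and 0 passed when any 1 of the 8 arrays compared was left out except shHIF-1A 12 h replicate 1.

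Of 16 reported target genes of Krüppel-like factors, 14 were tested. At 24 h in shGFP 5 rose and 5 fell, with the cell cycle inhibitors CDKN1C (1.49 ± 0.12) and CDKN1A (1.19 ± 0.15) and the protease gene PLAU (1.14) higher and CCND1, cyclin D1, lower (-1.13). In shHIF-1A 1 was higher and 9 lower (18.8% of all genes were lower), with a list median of -0.36 beside 0.00. In shNDRG3 1 was higher and 9 lower (20.9%), with a list median of -0.32 beside 0.02. The chemokine gene CCL5 fell by 3.39 ± 0.14 and 4.73 ± 0.15, CCND1 by 2.83 and 2.18, and CDKN1A by 1.03 and 1.88 in shHIF-1A and shNDRG3. Both activated and repressed targets are on this list, so its counts carry no expected direction. Between the lines 3 were higher in shHIF-1A (8.52%), CCL5 (1.5), CDKN1A (1.15) and PLAU (0.71), and 2 lower, CCND1 (-0.57) among them.

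CD68 and PECAM1, markers of other cell types, moved with the knockdown comparisons. The 5 tested fibroblast markers had list medians of 0.02 in shHIF-1A and -0.01 in shNDRG3, with 1 higher and 1 lower in each line. The 5 tested endothelial markers had list medians of -0.27 and -0.04, with 0 higher in either line and 3 and 2 lower. Of the 2 tested blood markers, 1 was lower in each line. Of all genes, 18.8% were lower and 19.2% higher in shHIF-1A, and 20.9% and 22.7% in shNDRG3. CD68, a lysosomal protein of macrophages that is also found in other cells, fell by 1.70 in shHIF-1A and 1.79 in shNDRG3, and rose by 0.69 in shGFP at 24 h. The summed deposited intensity of the 4 blood markers with a probe ranged from 4080 to 14200 between groups. CD68 was the 1 blood marker above 2 times the array median in shGFP normoxia. That of the 6 endothelial markers ranged from 809 to 1200 and that of the 6 fibroblast markers from 1350 to 1830. PECAM1 was the endothelial marker above 2 times the array median in normoxia and fell by 0.30 and 0.91, and COL1A1 was the fibroblast marker above it. All samples are titled as the Huh-7 cell line, and no other cell type is named in the titles. Any part of other cells in the differences of KLF2, KLF4 and KLF6 was not tested. Fewer cells of a type and less RNA per cell cannot be told apart in these bulk samples.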

How the data were processed

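RNA of 24 Huh-7 samples was measured on Illumina bead arrays. The deposited values are intensities on a linear scale, from 52.6 to 59613. An Illumina TotalPrep kit was used to amplify and label column-purified RNA, per the labels' protocols. For the scanner software, any background step and any normalization, the sources used here give nothing. From their differing array medians and the lack of values near 0, the intensities were read as unnormalized and with background left in, which understates folds of dim genes.

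Quantile normalization of the log2 values used limma 3.58.1, with statmod 1.5.0, under R 4.3.3. Probes above their array's median on at least 2 arrays were kept (31100), and each of 15246 genes took its brightest kept probe. Of 47231 probes, 30113 had 1 gene symbol in the platform annotation, 8 had several and 17110 were not listed. Group means of all 24 arrays were fitted with limma (lmFit and eBayes, 13 residual and 9.74 prior degrees of freedom) in 15 two-sided contrasts, with Benjamini-Hochberg adjustment over all genes in each and a threshold of 0.05. Differences are first group minus second, on the log2 scale, with SE from the fit. Other probes of a gene were read from a fit over all kept probes. The number of arrays limits the precision. The fit was also run on simulated data with independent noise and known changes in shGFP at 24 h. Those data held no departing arrays, so the run says nothing on calls that rest on such arrays.

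Promoter windows and gene positions came from RefSeq tables for GRCh38.p14. The members and lists were chosen with earlier results of these data known. All listed genes were named, with up to 4 members of each list with the smallest p in each of 4 main comparisons when past the threshold, and the 3 genes most like each member with a span of at least 1, leaving out unnamed symbols. The markers named, the 1.5-fold dim bound and the omission of shHIF-1A 3 h replicate 2 with either shNDRG3 24 h array were chosen after their values were seen. Alternatives covered normalization, background correction (normexp, offset 50), dim probes, the probe of a gene, a replicate block, array weights, the arrays in the fit and single omitted arrays.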

Additional observations from a re-analysis of the deposited data

Results flagged for a closer look

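The difference of KLF6 between the shNDRG3 and shGFP lines changed with time. The change from 6 h to 24 h in shNDRG3 exceeded that in shGFP by 1.87 ± 0.18 on the log2 scale (adjusted p = 2.06e-07, limma), higher in both shNDRG3 arrays at 24 h than in both at 6 h. It was 1.74 and 2.01 without replicate 1 or replicate 2 of shNDRG3 at 24 h.

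The difference of KLF9 between these lines also changed from 6 h to 24 h, by -1.11 ± 0.23 (adjusted p = 0.00262). The shNDRG3 arrays were at 8.48 and 8.39 at 6 h and at 8.94 and 8.24 at 24 h, while shGFP went from 7.71 and 7.64 to 8.93 and 8.95. This change was -1.47 to -0.76 when single arrays were left out. Its call was lost with the compared arrays alone, and the KLF9 probe was dim.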

How the results depend on the processing

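The KLF6 differences from shGFP in both knockdown lines kept their direction and their side of the threshold under every alternative run. With the signals as deposited, KLF2 at 24 h in shGFP changed to -0.39 (adjusted p = 0.0401) and KLF13 to -0.57 (adjusted p = 0.00402). That scaling moved the median of all genes by -0.17, -0.25 and -0.41 at 6 h, 12 h and 24 h, so KLF2 lay near that shift. Of the 8 listed genes, 1 passed at 12 h in shGFP, and this was 0 with median-centred arrays and 2 with the stricter filter, the mean of all kept probes, array weights or the compared arrays alone. At 3 h in shHIF-1A 3 became 1 with median-centred arrays and with the signals as deposited. At 24 h in shNDRG3 4 became 2 with the compared arrays alone. For the change from 3 h to 12 h in shHIF-1A, 0 became 1 with the stricter filter, the mean of all kept probes or the compared arrays alone, 3 with array weights and 2 without shHIF-1A 3 h replicate 2 and either shNDRG3 24 h array. For the change from 6 h to 24 h in shNDRG3, 2 became 1 with the compared arrays alone, where KLF9 had an adjusted p of 0.0676. Of the other KLF and SP genes, 3 at 24 h became 7 with the signals as deposited and 5 with the compared arrays alone. In shNDRG3 2 became 1, and between the knockdown lines 1 became 2, with median-centred arrays, signals as deposited, array weights or the compared arrays alone. Leaving out single arrays gave 0 to 1 listed genes at 12 h in shGFP, 2 to 4 at 12 h in shHIF-1A, 3 to 4 at 12 h in shNDRG3 and 0 to 1 for the change in shHIF-1A. For the other KLF and SP genes it gave 1 to 3 at 24 h, 2 to 4 in shHIF-1A, 1 to 3 in shNDRG3 and 0 to 1 between the lines. KLF4 at 24 h lost its call with the mean of all kept probes (-0.36, adjusted p = 0.0512). For these changes the cause was not tested.

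Replicate numbers are shared by title. Over 55 pairs of groups, deviations of same-numbered arrays correlated at r = -0.095 to 0.278, and 4 exceeded 0.1, so the numbers were not taken to pair samples. With a replicate block 2 listed genes passed at 12 h in shGFP, KLF4 being added (-0.51, adjusted p = 0.0423), and 1 for the change in shHIF-1A, KLF4 (-0.97, adjusted p = 0.0461). The FHL3 call between the knockdown lines was lost with it. The glucocorticoid list gave 4 in place of 3 between the lines, and no other count of a list or call of a listed gene changed.

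Over all genes, 226 at 3 h in shGFP became 98 with median-centred arrays, 108 with signals as deposited, 398 with array weights and 415 with the compared arrays alone. At 6 h 742 became 413 with median-centred arrays and 1150 with array weights. At 6 h in shHIF-1A 2765 became 1769 with signals as deposited, 4589 with weights and 4279 with the compared arrays alone. At 24 h in shNDRG3 5067 became 2853 with weights and 1795 with the compared arrays alone. Between the lines 2405 became 3773 with weights. The change in shHIF-1A gave 187, and 43, 37 and 659 with median-centred arrays, signals as deposited and weights. The change in shNDRG3 gave 1627, and 918, 780, 969 and 592 with these and with the compared arrays alone. Leaving out single arrays gave 92 to 411 at 3 h and 338 to 653 at 6 h in shGFP, 2403 to 3102 at 12 h (3847 with all arrays), 1630 to 1739 at 6 h and 2255 to 2644 at 12 h in shHIF-1A (3556 with all arrays), and 57 to 167 and 1069 to 3138 for the changes. The shares of all genes move with these counts. Dim probes such as those of KLF3 and KLF9 limit what can be seen of a change, since signal over background is unknown.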
